A study of Mus musculus with 2 samples.

Results

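The proteasome genes were taken as the protein-coding genes on mouse chromosomes 1 to 19 whose symbols begin with Psma, Psmb, Psmc, Psmd, Psme, Psmf or Psmg followed by a digit, which selected 50 of 20665 genes. They were read in a chromatin immunoprecipitation and sequencing (ChIP-seq) study of H3R17me2a, the asymmetric dimethylation of a histone H3 arginine, written by the arginine methyltransferase Carm1. The 2 samples formed 1 group, wild-type mouse heart at postnatal day 21, with no control, mutant or second condition analysed here. The tissue label and the protocol name frozen heart, another label names primary cardiac fibroblasts, and the titles carry the name carm1 beside a wild-type genotype label. The antibody label reads H3R17me2, and the design text speaks of neonatal heart. Nothing in the labels says whether the samples came from separate animals.

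The proteasome is the barrel-shaped protease that degrades ubiquitin-tagged proteins, and in the heart it turns over sarcomere and mitochondrial proteins. Its core particle stacks alpha rings, which gate the entrance, on beta rings, which hold the protease sites. A regulatory particle of ATPase and non-ATPase subunits sits on the core, binds the ubiquitin chain, removes it and unfolds the substrate. Interferon-induced, thymus and testis cells swap some subunits for close relatives, which gives the immunoproteasome, the thymoproteasome and the testis proteasome. The 50 genes held 7 alpha ring, 7 beta ring, 6 ATPase and 11 non-ATPase genes, together the 31 constitutive subunits. They also held 3 immune, 1 thymus and 1 testis subunit, 5 activators and inhibitors, 6 assembly chaperones and 3 genes that match by symbol alone.

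Each sample had its own list of peaks, stretches where immunoprecipitated fragments pile up above background, called list 1 and list 2. List 1 held 21496 peaks and list 2 held 38012 on the autosomes, X and Y. In list 1 no peak was below a −log10 p of 5.0 and in list 2 none below 2.01, so the lists did not share a threshold. Total depth is unknown, but whole reads at each summit could be recovered from the deposited fold and p, and the median was 26 for list 1 peaks and 15 for list 2 peaks. Of the 34 proteasome genes whose strongest peaks overlapped between lists, 15 had their summits on the same base and 30 within 25 bp. At those 15 the recovered reads differed by at most 4, for example 163 in list 1 and 167 in list 2 at Psma2. The samples were therefore counted as 1 sample, values of both lists are given side by side, and no replicate error exists for any of them. The peaks followed the heart label: 9 of 10 cardiomyocyte markers had peaks of both lists at an end of the gene, against 40.1% of all 20665 genes. The counts were 2 of 10 immune markers, 1 of 10 testis markers, and 0 of 10 fibroblast and 0 of 10 endothelial markers, where a count of 0 of 10 allows a share of up to 30%. Cd68 and Cd79a, the marked immune genes, had no peak of both lists touching their spans. Col1a1 (fibroblast), Cldn5 (endothelial) and Ryr2 (cardiomyocyte) had gene-end peaks in list 2 alone.

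Proteasome genes carried the mark more often than protein-coding genes at large. A gene was called marked when both lists had a peak reaching into the 1000 bp on either side of an end of its span. By that rule 35 of 50 proteasome genes were marked (70%, 95% exact binomial interval 55.4 to 82.1%), against 40.1% of all 20665 genes. In list 1 alone the same 35 genes had a gene-end peak (70%, all genes 40.6%), and in list 2 alone 40 had one (80%, all genes 47.7%). The intervals cover counting error only, genes are not replicates of the heart, and no test was made of the difference. Holding both lists to a −log10 p of 5 left 29 genes (58%), against 34.2% of all genes. With each list cut to its upper 50% by fold, 10 proteasome genes were marked (20%), against 12.6% of all genes.

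**Figure D1:**
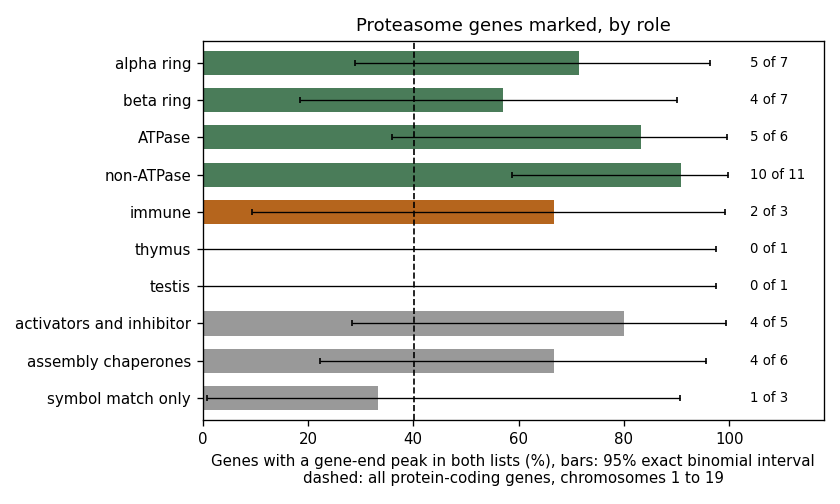
Share of proteasome genes marked at an end, in percent, by role, with 95% exact binomial intervals and counts, and the 40.1% of all protein-coding genes as a dashed line. Non-ATPase genes stand highest at 10 of 11, and the thymus and testis genes are each 0 of 1.

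Constitutive subunits were marked in 24 of 31 cases (77.4%, interval 58.9 to 90.4%), and the immune, thymus and testis subunits in 2 of 5 (40%, interval 5.27 to 85.3%). The class difference was 37.4 percentage points and the intervals overlap. Over all genes the share was 40.1%, close to that of the 5 immune, thymus and testis subunits. The marked pair were the immune genes Psmb9 and Psmb10, and the unmarked were Psmb8, Psmb11 and Psma8. Within the constitutive set the regulatory particle had 15 of 17 genes marked (88.2%) and the core 9 of 14 (64.3%). With only ends more than 2000 bp from another gene's end, 16 of 26 constitutive genes were marked and 0 of 4 immune, thymus and testis genes, against 29.3% of all genes scored. The marked ends of Psmb9 and Psmb10 are left out by that rule, so their peaks could not count and the 0 follows from it. With only the upper 50% of each list by fold, the classes differed by 2.58 percentage points, with 7 constitutive genes and 1 immune gene, Psmb10, marked. Of all genes 12.6% were marked in that setting.

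The direct swaps put each restricted subunit beside the constitutive one whose place it takes. Psmb5, the chymotrypsin-like protease of the beta ring (chromosome 14, 54614120 to 54617995), had folds over background of 5.40 in list 1 and 3.54 in list 2, from 26 and 27 reads. Psmb8, its immune substitute (chromosome 17, 34198195 to 34201454), and Psmb11, its thymus substitute (chromosome 14, 54625310 to 54629556), had no gene-end peak in either list. The constitutive gene of this trio was marked and both substitutes were not. Psmb6, the caspase-like subunit (chromosome 11, 70525324 to 70527858), had folds of 6.0 and 4.99 from 23 reads in each list, and Psmb9, its immune substitute (chromosome 17, 34182030 to 34187330), had 6.5 and 3.50 from 22 and 21 reads. Here both genes were marked with like read numbers. Psmb7, the trypsin-like subunit (chromosome 2, 38588046 to 38643952), had no peak within 6000 bp of its span in either list, whereas Psmb10, its immune substitute (chromosome 8, 105935728 to 105938392), had folds of 5.05 and 4.42 from 26 and 27 reads. In this swap the constitutive gene was unmarked and the immune one was marked. Psma7, an alpha subunit (chromosome 2, 180036367 to 180042464), had folds of 6.60 and 6.11 from 65 reads in each list, while its testis substitute Psma8 (chromosome 18, 14706135 to 14762301) had no peak within 6000 bp in either. The restricted subunits thus did not follow a common pattern.

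**Figure D2:**
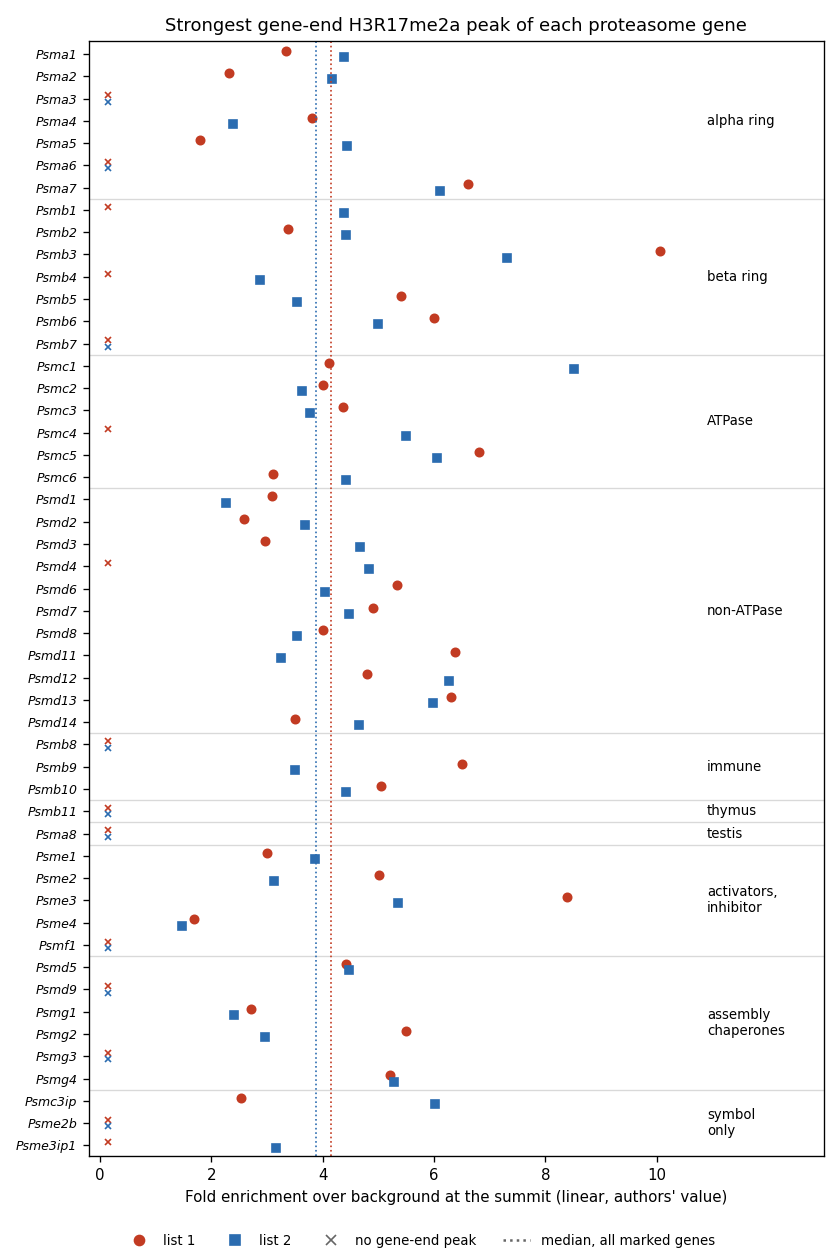
Fold enrichment at the strongest gene-end peak of each proteasome gene, on a linear axis, in list 1 (circles) and list 2 (squares), grouped by role, where crosses mark genes without such a peak. Dotted lines give the medians over all marked genes, 4.15 in list 1 and 3.88 in list 2. Psmb3 stands highest in list 1 at 10.1, from a peak 908 bp upstream of its start.

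The Psmb9 and Psmb10 peaks lie where other genes are close. Psmb9 and Tap1, a subunit of the peptide transporter that feeds the antigen-loading machinery, start 226 bp apart on opposite strands, and the peak of list 1 (34187392 to 34187910) and list 2 (34187404 to 34188029) runs from that interval into Tap1. Its summit lay 157 bp upstream of the Psmb9 start in both lists, and the peak counts for Tap1 as well. Psmb8, on the far side of Tap1, had only a list 2 peak near it, 6596 bp downstream of its start at Tap2, with a fold of 4.22 and 15 reads. The Psmb10 peak was the widest of the set, 1479 bp in list 1 and 1757 bp in list 2, and covered the start with its summit 1099 bp inside the gene. The ends of Psmb10 lie 1866 bp from Ctrl and 1159 bp from Lcat. In whole heart tissue, a mark carried by few cells and a weak mark in many cells cannot be told apart.

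**Figure D3:**
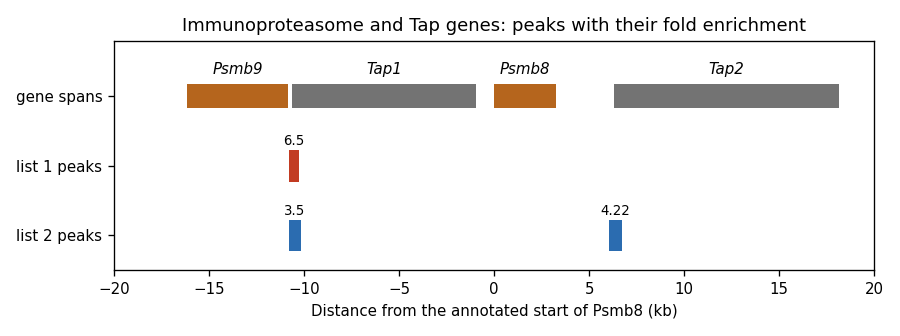
Map of gene spans and peaks within 20 kb of the annotated start of Psmb8, in kb from that start, with list 1 above list 2 and the fold printed at each peak. The only peak found in both lists, with folds of 6.5 and 3.50, has its summit between Psmb9 and Tap1 and runs into Tap1, and no peak touches Psmb8.

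Promoter sequences are shown for this contrast, Psmb5 marked and Psmb8 not. They are the RefSeq sequences (GRCm38.p6, the build of the mm10 coordinates), 250 bases before to 50 after the annotated start, 5′ to 3′ on the gene's strand. Capitals mark any match, on either strand, to TGACNNNGC (the core of the antioxidant response element, which Nfe2l1 binds), CCAAT, GAAANNGAA (an interferon-stimulated element) or TTCNNNGAA (a gamma-activated site). Psmb5 is chr14:54617946-54618245 on the minus strand, and Psmb8 is chr17:34197945-34198244 on the plus strand.
Psmb5: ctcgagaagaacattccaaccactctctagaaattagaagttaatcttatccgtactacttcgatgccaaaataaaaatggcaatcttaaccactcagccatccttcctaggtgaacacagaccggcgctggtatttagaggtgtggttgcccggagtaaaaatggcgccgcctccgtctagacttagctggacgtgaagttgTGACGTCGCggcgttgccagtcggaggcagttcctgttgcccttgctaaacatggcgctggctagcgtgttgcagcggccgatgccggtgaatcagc
Psmb8: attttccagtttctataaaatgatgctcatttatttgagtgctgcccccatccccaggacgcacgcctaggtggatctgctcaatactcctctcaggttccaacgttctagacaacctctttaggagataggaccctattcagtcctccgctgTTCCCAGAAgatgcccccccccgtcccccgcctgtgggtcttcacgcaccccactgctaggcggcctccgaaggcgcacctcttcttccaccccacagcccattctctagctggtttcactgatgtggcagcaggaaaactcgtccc

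The Psmb5 window held the antioxidant core once and 20 CpG dinucleotides, and the Psmb8 window held the gamma-activated letters once and 11 CpG dinucleotides. The antioxidant core was found in 6 of 42 proteasome promoters (14.3%), against 13.2% of 16457 promoters of the same length. CCAAT was found in 15 of 42 (35.7%, all promoters 39.1%), the interferon letters in 6 (14.3%, all 8.17%) and the gamma-activated letters in 3 (7.14%, all 7.88%). Each share was close to that of all promoters except the interferon letters, where the difference rests on 6 promoters and was not tested. The interferon letters were in Psmb3, Psmb4, Psmd4, Psmd9, Psme1 and Psmg4 and in none of the immune subunit promoters. The 42 genes are those in the promoter table, which held no entry for Psmb1, Psmb2, Psmb7, Psmc3, Psmd3, Psmd7, Psma8 and Psmg2.

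The other promoters shown are those of the 4 constitutive genes, among those in the table, that head their classes (beta ring, ATPase, alpha ring and non-ATPase) by the summed rank of fold over both lists, with capitals as before. Psmb3 is chr11:97703184-97703483 on the plus strand, Psmc5 chr11:106255935-106256234 on the plus strand, Psma7 chr2:180042415-180042714 on the minus strand and Psmd13 chr7:140882144-140882443 on the plus strand.
Psmb3: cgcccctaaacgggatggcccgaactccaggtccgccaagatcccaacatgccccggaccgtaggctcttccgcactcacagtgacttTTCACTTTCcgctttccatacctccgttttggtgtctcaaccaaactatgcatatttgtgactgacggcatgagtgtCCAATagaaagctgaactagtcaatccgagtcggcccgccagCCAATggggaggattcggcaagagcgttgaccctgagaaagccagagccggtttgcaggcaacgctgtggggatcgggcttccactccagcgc
Psmc5: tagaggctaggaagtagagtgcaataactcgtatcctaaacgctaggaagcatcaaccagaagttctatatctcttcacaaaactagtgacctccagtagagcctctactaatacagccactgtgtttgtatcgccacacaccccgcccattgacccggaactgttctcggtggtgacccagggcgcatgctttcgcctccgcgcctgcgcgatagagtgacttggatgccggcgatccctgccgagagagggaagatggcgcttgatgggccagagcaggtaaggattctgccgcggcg
Psma7: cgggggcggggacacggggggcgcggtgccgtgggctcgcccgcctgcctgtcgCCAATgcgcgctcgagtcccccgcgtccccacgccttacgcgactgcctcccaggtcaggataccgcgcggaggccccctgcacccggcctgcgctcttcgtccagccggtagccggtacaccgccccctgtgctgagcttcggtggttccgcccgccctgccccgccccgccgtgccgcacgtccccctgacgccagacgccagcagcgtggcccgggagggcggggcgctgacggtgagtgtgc
Psmd13: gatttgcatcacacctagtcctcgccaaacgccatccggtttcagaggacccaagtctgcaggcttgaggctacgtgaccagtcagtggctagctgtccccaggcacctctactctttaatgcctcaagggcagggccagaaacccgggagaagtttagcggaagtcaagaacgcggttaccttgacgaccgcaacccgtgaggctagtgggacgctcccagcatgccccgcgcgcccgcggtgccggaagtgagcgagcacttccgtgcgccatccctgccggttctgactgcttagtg

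In the core particle, 5 of 7 alpha ring and 4 of 7 beta ring genes were marked. Psmb3, a beta ring subunit (chromosome 11, 97703434 to 97713500), had the highest list 1 fold of the set, 10.1 from 32 reads, and 7.31 from 93 reads in list 2. These folds do not describe the same summit: list 1 called a peak 908 bp upstream and another 103 bp upstream of the start, the second with a fold of 6.40 and 95 reads, and list 2 joined both. The fold of 10.1 belongs to the farther peak. An end of Pcgf2 lies 1000 bp from the Psmb3 start, and which gene the farther peak belongs to was not tested. Psma1, an alpha subunit (chromosome 7, 114264550 to 114276116), had folds of 3.33 and 4.38, and Psma5, another (chromosome 3, 108256926 to 108279952), had 1.79 and 4.44. Psma5 had nearly the same reads in the lists, 60 and 63, over recovered backgrounds of 33.0 and 12.9 reads. Psma2 likewise, with 163 and 167 reads, had folds of 2.31 and 4.17 over backgrounds of 70.0 and 38.8 reads. The folds of the lists therefore moved with the background at these genes, not with the reads.

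Psma3 and Psma6, the alpha subunits without a gene-end peak, were marked at a start inside their spans. The annotated start of Psma3 lies within the span of its gene (chromosome 12, 70969283 to 70995877), and both lists had a summit 23 bp downstream of it, with 237 reads in list 1 and 247 in list 2 and folds of 1.76 and 5.12. Psma6 (chromosome 12, 55384222 to 55418459) has an annotated start at its outer end and another inside, and both lists had a summit 24 bp downstream of the inner one, with 55 and 57 reads and folds of 5.09 and 7.25. Counted by windows of 1000 bp around annotated starts, a measure added after the data were seen, all 7 alpha ring genes were marked. By that measure 32 of 42 proteasome genes were marked (76.2%), against 42.2% of the 16457 genes in the table, with 22 of 25 constitutive genes (88%) and 2 of 4 immune and thymus genes (50%).

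In the regulatory particle, 5 of 6 ATPase and 10 of 11 non-ATPase genes were marked. Psmc5 (chromosome 11, 106256185 to 106263112) had folds of 6.80 and 6.06 from 67 reads in each list, Psmc1 (chromosome 12, 100110202 to 100123364) 4.11 and 8.51 from 77 and 81 reads, and Psmc6 (chromosome 14, 45329823 to 45349074) 3.10 and 4.42 from 30 and 27 reads. These are subunits of the ring that unfolds substrates. Among non-ATPase genes, Psmd13 (chromosome 7, 140882394 to 140898642) had folds of 6.30 and 5.97, Psmd12 (chromosome 11, 107479528 to 107498036) 4.80 and 6.26, and Psmd7 (chromosome 8, 107580380 to 107588482) 4.90 and 4.47. Psmd14, the enzyme that cuts the ubiquitin chain from the substrate, had 3.50 and 4.65 from 34 and 36 reads. Psmd1, a large scaffold subunit, was lower at 3.09 and 2.26, and its peak was lost at a common −log10 p of 5. Psmd8 had folds of 4.0 and 3.53, but the strongest list 2 peak, with 8 reads, did not overlap that of list 1, with 23. Another list 2 peak at Psmd8, with a fold of 2.26 and 24 reads, did overlap the list 1 peak. Their summits lay 242 and 245 bp downstream of the start. The other marked constitutive genes, Psma4, Psmc2, Psmc3, Psmd2, Psmd3 and Psmd6, had list 1 folds between 2.58 at Psmd2 and 5.33 at Psmd6 and list 2 folds between 2.39 at Psma4 and 4.68 at Psmd3.

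Constitutive genes outside the marked set fell short in different ways. Psmb1, Psmb4, Psmc4 and Psmd4 had a gene-end peak in list 2 and none in list 1. The list 2 folds were 4.38 at Psmb1, 2.88 at Psmb4 and 5.49 at Psmc4, from 20, 17 and 20 reads. A peak of both lists lay beyond the 1000 bp window at Psmb1 (15499741 to 15500202 in list 1, folds of 4.83 and 5.05). A wider window would count it, but it covers an end of the neighbouring gene Tbp, 1612 bp from the end of Psmb1. It cannot be assigned to Psmb1. Psmd4, a ubiquitin receptor of the proteasome (chromosome 3, 95032688 to 95042614), had 131 reads, a fold of 4.82 and a −log10 p of 30.1 in list 2, with its summit 5 bp from the start, and no list 1 peak within 6000 bp. Psmb7 had none in either list.

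The activators were marked, Psme4 only at the lists' own thresholds, and the inhibitor was not. Psme3, a nuclear activator of the core (chromosome 11, 101316213 to 101323537), had the highest −log10 p of the set in list 1, 102, with folds of 8.38 and 5.35 from 179 and 180 reads. Psme1 and Psme2 encode the interferon-inducible activator, which is also made without interferon. Psme1 (chromosome 14, 55578494 to 55581527) had folds of 3.00 and 3.86 from 20 reads in each list, and Psme2 (chromosome 14, 55587440 to 55591101) had 5.0 and 3.12 from 59 reads in each. Psme2 also had a wide peak, 1274 bp in list 1 and 1254 bp in list 2, with summits 359 and 352 bp upstream of the start, toward Rnf31. Psme4, an activator best known from spermatogenesis and DNA repair, had the lowest folds of any marked gene in the set, 1.69 and 1.48, although 75 and 82 reads lay at its summit, over backgrounds of 44.0 and 55.0 reads. Its list 2 peak had a −log10 p of 2.41, and Psme4 was not marked at a common −log10 p of 5. Psmf1, the inhibitor (chromosome 2, 151716062 to 151744199), had no gene-end peak, and list 2 alone had a peak 99 bp from its annotated start, which lies inside the span, with 9 reads and a fold of 3.28.

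Assembly chaperones were marked in 4 of 6 cases. Psmg1 (folds of 2.71 and 2.41), Psmg2 (5.50 and 2.96) and Psmg4 (5.20 and 5.28), which help build the alpha ring, were marked, and Psmg3 was not. Psmd5, a chaperone of the ATPase ring, had folds of 4.42 and 4.47 from 114 reads in each list, and Psmd9, another, had no peak within 6000 bp in either list. The symbol-only matches do not encode subunits: Psmc3ip, a meiotic recombination factor, had folds of 2.52 and 6.01 at its start, 887 bp from Retreg3, Psme3ip1, a partner of Psme3, had a peak in list 2 alone with 300 reads and a fold of 3.16, and Psme2b had none. Leaving these 3 out gave 34 of 47 marked.

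Where marked, proteasome genes had median fold, width and reads near those of all marked genes. The median fold over the 35 marked genes was 4.36 in list 1 and 4.41 in list 2, against 4.15 and 3.88 over all 8284 marked genes. The median peak width was 458 bp in list 1 and 639 bp in list 2, against 528 and 685 bp over all marked genes. By the narrower of a gene's widths in the lists, the widest after Psmb10 and Psme2 were Psmd11, with 751 bp in list 1 and 781 bp in list 2, Psmd13, with 749 and 1136 bp, and Psmb5, with 678 and 748 bp. Reads at the summit ran from 15 to 239 in list 1 with a median of 48, against a median of 51 over all marked genes. The highest was Psmb2, a beta ring subunit, with 239 reads in list 1 and 241 in list 2 and folds of only 3.38 and 4.41, over backgrounds of 70.0 and 53.4 reads.

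The peaks of proteasome genes sat at the start of the gene. Among the 30 marked genes with an annotated start, the median summit position was −9.5 bp in list 1 (negative is upstream), with quartiles of −82.8 and 83.8 bp, and −20.5 bp in list 2. The summit was within 250 bp of the start in 27 of 30 (90%), against 70.1% of 6732 marked genes in all. Of the 24 longer than 5000 bp, all 24 had the summit nearer the start than the other end in both lists, against 92.4% of 5871 marked genes of that length in list 1. The genes outside 250 bp in list 1 were Psmb3, Psmb10 and Psme2, described above.

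**Figure D4:**
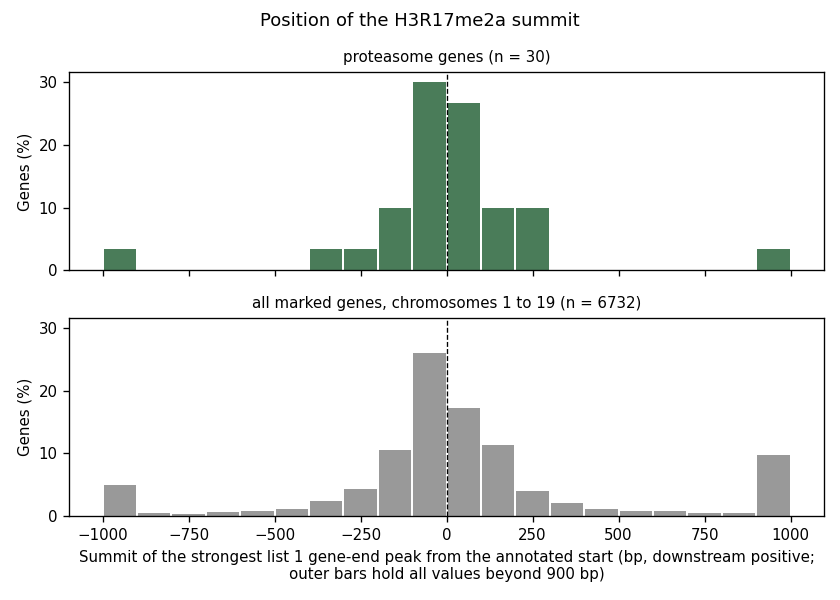
Distance in bp of the strongest list 1 gene-end summit from the nearest annotated start, downstream positive, as the percent of 30 marked proteasome genes (upper panel) and of 6732 marked protein-coding genes (lower panel), in bins of 100 bp whose outer bars hold all larger distances. In both panels the bars next to the start are the highest.

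Peaks inside the genes added little beyond the start. A peak of list 1 that overlaps one of list 2 touched the span of 35 of 50 proteasome genes (70%), against 44.6% of all genes. In 3 of 50 (6%) such a peak lay more than 1000 bp inside both ends, against 16.1% of all genes. Those 3, named after their values were seen, were Psma3, Psma6 and Psmc2, and at each the summit was within 50 bp of an annotated inner start, 41 bp at Psmc2. Median gene length was 11930 bp for proteasome genes and 17491 bp for all genes, and its part in this difference was not tested.

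A minority of proteasome genes had another coding gene starting close by on the opposite strand. Of 42 with an annotated start, 7 had another coding gene starting on the opposite strand within 1000 bp upstream (16.7%), against 8.77% of all genes in the table. The partners were Mrpl32 at Psma2, Ss18l1 at Psma7, Ftsj3 at Psmc5, Sirt3 at Psmd13, Tap1 at Psmb9, Rnf31 at Psme2 and Rspry1 at Psme3ip1. All of these but Psme3ip1 were marked. With such a partner 6 of 7 proteasome genes were marked, against 82.5% of all genes, and without one 24 of 35 (68.6%), against 36.9%. Partners were sought only among genes in the promoter table, so the group without one may hold genes with a close neighbour. Psmc2 was counted there, although an end of Dnajc2 lies 11 bp from its start. In 15 of the 35 marked proteasome genes no marked end lay more than 2000 bp from another gene's end, so those peaks cannot be assigned to 1 gene. With such ends left out, 20 of 41 proteasome genes were marked (48.8%), against 29.3% of 19006 genes.

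Promoter CpG content moved with the mark across all genes. The ratio of observed to expected CpG had a median of 0.811 in the 6732 marked genes with a promoter and 0.316 in the 9725 unmarked ones. It was 0.764 in proteasome genes, against 0.597 in all genes. Constitutive subunits had a median of 0.799, against 0.357 in the 4 immune and thymus subunits, whose values were 0.523 at Psmb8, 0.60 at Psmb9, 0.192 at Psmb10 and 0.165 at Psmb11. Among promoters with a ratio of at least 0.75, 19 of 22 proteasome genes were marked (86.4%), against 70.7% of 5798 genes. Below 0.75 the shares were 11 of 20 (55%) and 24.7%, but these pooled sets differ in CpG content. At ratios of 0.5 to 0.75, 10 of 16 proteasome genes were marked (62.5%), against 51% of 3483 genes. Under 0.25 it was 1 of 4, and 0 proteasome genes lay at 0.25 to 0.5, where 19.8% of 2756 genes were marked. These shares count marks at gene ends only. Psma6, with a ratio of 0.185, and Psma3, with 0.550, therefore count as unmarked, although both were marked at an inner start. Psmb10 was marked at a ratio at which few genes were, 7.04% of the 4420 genes under 0.25. Its summit lay 1099 bp inside the gene, beyond the promoter window, and the CpG content there was not measured. The part of CpG content in the differences between the classes was not tested.

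**Figure D5:**
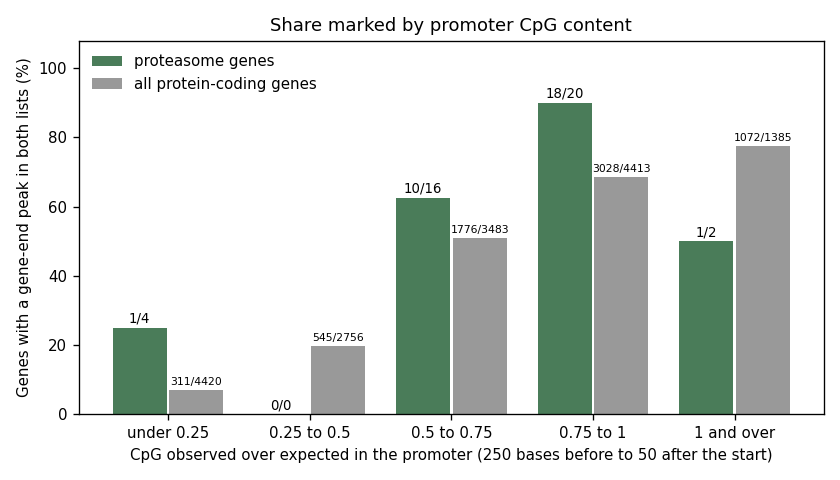
Percent of genes marked at an end by the observed over expected CpG ratio of the promoter, for proteasome genes (left bars) and all protein-coding genes in the promoter table (right bars), with counts above each bar. The share over all genes climbs with each bin, reaching 77.4% in the last, and proteasome genes lie above it in 3 of the 4 bins that hold any.

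Partners of the proteasome outside the symbol rule were marked in most cases too. Of 20 such genes on chromosomes 1 to 19, 17 were marked (85%), against 40.1% of all genes. Nfe2l1, the factor that raises proteasome genes when proteasome activity falls, had folds of 3.13 and 3.16, Ddi2, the protease that releases it, 5.0 and 6.75, and Ngly1, which strips its sugars, 6.56 and 4.99. Adrm1, a ubiquitin receptor, had 4.61 and 3.39, and Pomp, the chaperone of beta ring assembly, 3.57 and 2.96. The unmarked were Usp14, which trims ubiquitin on the proteasome, Ube3c, a ligase bound to it, and Ecpas, which ties core and regulatory particle together. Usp14 and Ube3c had a gene-end peak in list 2 alone, with folds of 2.04 and 1.71, and Ecpas had 2 peaks of both lists within its span. Psmd10, a chaperone gene on the X chromosome that the rule leaves out, had folds of 15.0 and 7.52. Of the other partners on that chromosome, Ubqln2 had folds of 2.29 and 3.05, and Uba1 had no gene-end peak in either list. Of 8 antigen processing genes that act with the immunoproteasome, 7 were marked (87.5%), against 40.1% of all genes, among them B2m, the light chain of class I molecules, at 2.74 and 12, Tapbp at 9.44 and 8.72, and the class I regulator Nlrc5 at 2.75 and 2.37. Tap2, next to Psmb8, had a peak in list 2 alone.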

How the data were processed

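H3R17me2a ChIP-seq peaks of 2 mouse heart samples were analysed. The build mm10 and the tools FastQC and Bowtie2 are named, with no role given, per the submitters' processing notes. Of the peak caller, control library and filters, details were not given in the sources used here. The deposited lists are in the 10-column narrow peak layout without a header. The deposited fold was read as a linear ratio of ChIP to background at the summit, the deposited significance columns are −log10 p-values and −log10 q-values, and the deposited score, a whole-number form of −log10 p, was not used. Peak values are the authors' own and were used only to describe and rank peaks within a list.

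Genes came from a RefSeq table and starts and sequences from a RefSeq promoter table, both GRCm38.p6. Exons and UTRs were not used here. Peaks overlapped at 1 bp or more. Reads were recovered as whole numbers that satisfy the Poisson upper tail for p and (reads + 1) / (background + 1) for fold, with list 2 reads multiplied by 0.618, a factor found by scanning. This matched p within 0.001 in 99.97% of list 1 and 99.87% of list 2 peaks, and all 75 proteasome gene-end peaks had 1 solution. In peaks simulated from the same formulas at low backgrounds, 100% of reads came back in sets of 385 and 390 peaks. That checks the inversion and cannot show that the formulas hold for the deposited lists. Backgrounds of list 2 were divided by that factor.

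The members and lists were chosen with earlier results of these data known, and classes were described without tests. Named in full are the restricted subunits with their counterparts, the 3 constitutive genes of each class with the lowest summed rank by fold, activators, chaperones, unmarked members and the 5 widest peaks. Alternatives changed the window, thresholds, overlap, list and neighbouring ends. Calculations used Python 3.11.15, numpy 2.4.6, pandas 2.3.3 and scipy 1.17.1.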

Additional observations from a re-analysis of the deposited data

How the results depend on the processing

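The count of marked proteasome genes ranged from 35 without replicate 2 to 40 without replicate 1, that of constitutive genes from 24 to 28 and that of partner and antigen processing genes from 24 to 27. The immune, thymus and testis count was 2 in both, the difference between constitutive and immune, thymus and testis shares ranged from 37.4 to 50.3 percentage points, and genes with a peak in the body from 35 to 42. In the upper 50% of peaks by fold, 10 proteasome genes were marked at an end and 11 in the body, with 7 constitutive, 1 immune and 6 partner and antigen processing genes, and the median folds were 6.15 and 5.31. That setting keeps fewer peaks by construction. At a common −log10 p of 5 the immune, thymus and testis count was 1, without Psmb9, whose list 2 peak had a −log10 p of 4.79. The constitutive count fell there to 20, without Psma4, Psmc2, Psmd1 and Psmd8, and that of partner and antigen processing genes to 20. With only ends over 2000 bp from another gene, 20 proteasome genes and 0 immune, thymus and testis genes were marked, with fewer genes scored. The marked ends of Psmb9 and Psmb10 are left out there, so that 0, and the class difference drawn from it, follow from the rule. The class difference, 37.4 percentage points as reported, was 2.58 in the upper 50% by fold, 24.5 at a −log10 q of 2 and 61.5 with ends over 2000 bp from another gene, and it stayed positive in each alternative run. Its 95% Newcombe interval, which covers counting error only, ran from −3.33 to 67.8 points. No paired analysis was possible because there is 1 group. List 2 reads rest on the scanned factor and with 1 sample no value has a biological error.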

Other observations

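Some list 2 peaks with high −log10 p had no counterpart in list 1. At a −log10 p of 30 or more list 2 held 1817 peaks, of which 178 (9.8%) met no list 1 peak, and at 20 or more it held 3630, of which 318 (8.76%) met none. Psmd4 and Psme3ip1 belong to them, with 131 and 300 reads in list 2. At Psma3, which has a peak in both lists, the 237 reads of list 1 stood over a recovered background of 133.9 reads and the 247 reads of list 2 over 46.9.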
